A study of Mus musculus with 140 samples.

Results

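The miR-200 family is a set of small RNAs that marks epithelial cells, and it was followed here through the vessels and the whole tissue of the mouse kidney in sepsis. Its members were taken by name: both arms, 3p and 5p, of miR-200b, miR-200a, miR-429, miR-200c and miR-141, which are 10 of the 1474 mature microRNAs (miRNAs) counted. The study sequenced small RNA from 28 male wild-type C57BL6/OlaHsd mice, with 5 libraries from each mouse. Glomeruli, arterioles, post-capillary venules and peritubular capillaries were cut from kidney cortex by laser microdissection, and a whole-kidney sample was taken without it. Sepsis was brought about by cecal ligation and puncture (CLP), in which the cecum is tied off and pierced, and sham mice went through the operation without this step. The 7 groups of 4 mice were CLP at 4 h, 24 h and 72 h, sham at 4 h, 24 h and 72 h, and healthy control mice at 0 h. The labels number the mice of a group as biological replicates and state no age. A microdissected sample is a piece of tissue enriched for a vessel segment and not a purified cell type, so it can also carry RNA of the cells beside that vessel.

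A miRNA guides a silencing complex to messenger RNAs that pair with its seed, the bases near its 5′ end. The miR-200 family is known for holding cells in the epithelial state: it represses ZEB1 and ZEB2, factors that switch off E-cadherin, and these factors in turn repress the family's genes. In the kidney the family is known from tubular epithelium and is low in endothelium and in smooth muscle. Its precursors come from a pair of clusters, one with miR-200b, miR-200a and miR-429 and one with miR-200c and miR-141, and each cluster supplies both seed types.

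The sequences of the 5 guide-side (3p) members are shown because they carry nearly all counts of the family and because members of different clusters differ by few bases. They are given 5′ to 3′ as RefSeq holds them for GRCm38.p6, where all 10 members were matched, and the capitals mark the seed, bases 2 to 8. The prefix mmu marks a mouse miRNA and is left out after this list.
mmu-miR-200b-3p: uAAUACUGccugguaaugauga
mmu-miR-429-3p: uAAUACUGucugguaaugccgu
mmu-miR-200c-3p: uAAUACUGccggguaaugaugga
mmu-miR-200a-3p: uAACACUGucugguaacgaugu
mmu-miR-141-3p: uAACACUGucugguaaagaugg
The seed AAUACUG was shared by miR-200b-3p, miR-429-3p and miR-200c-3p, and in the RefSeq table of 1679 mature mouse miRNAs it was found in these 3 alone. The seed AACACUG was shared by miR-200a-3p and miR-141-3p, 2 members of different clusters, and differs from the other by 1 base. Of the opposite (5p) strands, miR-200b-5p and miR-200a-5p shared the seed AUCUUAC, and miR-200c-5p, miR-141-5p and miR-429-5p each had their own. Counted from the 5′ end, miR-200b-3p and miR-200c-3p differed by 2 bases over their first 22 (U11G and A22G), and miR-200a-3p and miR-141-3p by 2 bases (C17A and U22G). How reads with mismatches were assigned is not known here, so the counts within each of these near-identical pairs are uncertain to that extent.

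The cluster of miR-200b, miR-200a and miR-429 spans 1846 bases on the minus strand of chromosome 4 (GRCm38.p6, chr4:156053905-156055750). It lies in introns of Ttll10 and of the noncoding Gm13648, with Mir429 in an exon of Gm13648. The cluster of miR-200c and miR-141 spans 477 bases on the minus strand of chromosome 6 (chr6:124717914-124718390), in an intron of the antisense gene Gm15884, with Mir141 also in an exon of the unclassified transcript Gm29008.

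The depth of a library limits what can be said of these members. Counts over all miRNAs were 1412288 to 7921184 in whole kidney, 77258 to 1352025 in glomeruli, 19307 to 569283 in arterioles, 15148 to 567040 in post-capillary venules and 4215 to 49456 in peritubular capillaries. A count of 0 allowed up to 712 CPM (counts scaled to a library of 1e6) in the shallowest peritubular capillary library and up to 2.12 CPM in the shallowest whole-kidney library (3 counts, counting error only). The headers of the 140 columns are written in 2 styles, one for the 12 healthy and 4 h mice and one for the 16 mice at 24 h and 72 h. These sets of columns differed in depth, so a difference between them cannot be told apart from time after the operation. Levels below are CPM of miRNA counts scaled by the trimmed mean of M values (TMM) over all 140 libraries. Reads span a whole mature miRNA, so no division by length was made, and how well each sequence was captured was not tested.

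In whole kidney, the 3 guide strands of the first cluster were the most abundant members. miR-429-3p had a lowest, median and highest level of 6276, 10003 and 12539 CPM over 28 libraries, miR-200a-3p of 2104, 8256 and 14778 CPM, and miR-200b-3p of 2759, 8006 and 10331 CPM. The second cluster stood below them, with miR-200c-3p at 1851, 3387 and 5711 CPM and miR-141-3p at 197, 425 and 564 CPM. The first 3 ranges overlapped widely and the range of miR-141-3p lay below those of the other 3p members. Of the 5p strands, miR-200a-5p and miR-200b-5p had medians of 476 and 441 CPM, close to miR-141-3p. miR-429-5p had 34 counts in all whole-kidney libraries together, miR-200c-5p 226 and miR-141-5p 1446.

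Among the vessels, the members with seed AAUACUG ran over similar ranks. miR-200b-3p had a lowest, median and highest level of 740, 3600 and 7361 CPM in peritubular capillaries and 118, 2640 and 5368 CPM in post-capillary venules, with 88.1, 607 and 1582 CPM in glomeruli and 0, 110 and 494 CPM in arterioles. miR-429-3p had 2711, 6011 and 9755 CPM in peritubular capillaries, 1421, 4186 and 8334 CPM in post-capillary venules, 408, 910 and 2292 CPM in glomeruli and 0, 244 and 650 CPM in arterioles. miR-200c-3p had 0, 1884 and 4349 CPM in peritubular capillaries, 829.2, 2088 and 3962 CPM in post-capillary venules, 57.5, 367 and 1197 CPM in glomeruli and 0, 118 and 520 CPM in arterioles. Peritubular capillaries and post-capillary venules were the high pair with widely overlapping ranges, glomeruli came next, and arterioles were lowest. Within the high pair, the medians of miR-200b-3p and miR-429-3p were higher in the capillaries and that of miR-200c-3p in the venules.

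miR-200a-3p had 0, 3995 and 8304 CPM in peritubular capillaries, 339, 4162 and 8092 CPM in post-capillary venules, 198, 803 and 2255 CPM in glomeruli and 0, 209 and 847 CPM in arterioles. Its cluster-crossing seed partner miR-141-3p had 0, 243 and 983 CPM in peritubular capillaries, 25.1, 343 and 752 CPM in post-capillary venules, 0, 43.2 and 134 CPM in glomeruli and 0, 6.36 and 112.5 CPM in arterioles. By their medians both stood a little higher in venules than in peritubular capillaries, with overlapping ranges, and both were lowest in arterioles. Summed over its 10 members, the family averaged 28212 ± 8626 CPM in whole kidney, 16510 ± 5835 CPM in peritubular capillaries, 13746 ± 6559 CPM in the venules, 3469 ± 1939 CPM in glomeruli and 833 ± 609 CPM in arterioles (SD, n = 28 each). The family made up a mean of 2.79% of all miRNA counts in whole kidney, 1.93% in peritubular capillaries, 1.49% in the venules, 0.418% in glomeruli and 0.0603% in arterioles.

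**Figure D1:**
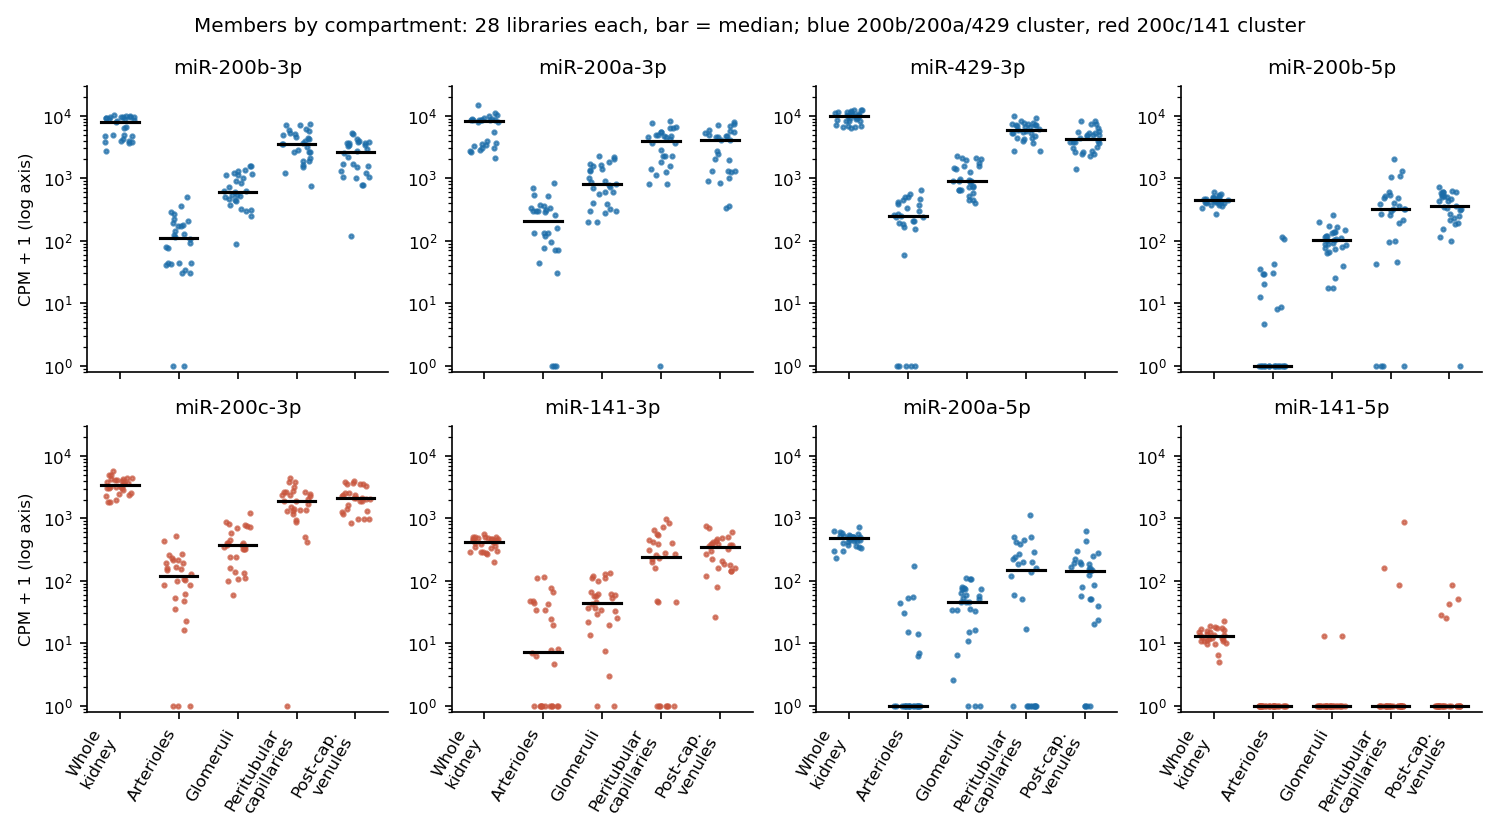
Level of 8 family members by tissue on a log axis (CPM + 1). Each point is 1 library, 28 per tissue, the bar is the median, blue marks the cluster of miR-200b, miR-200a and miR-429 and red that of miR-200c and miR-141; whole kidney has the highest median of each member and arterioles the lowest, apart from miR-141-5p, whose median is 0 in all 4 microdissected compartments.

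Arterioles held the least of the family. Set against the average of the 3 other vessel types, 7 of the 8 members tested were lower in arterioles, while 16.7% of all 383 miRNAs tested were lower (edgeR quasi-likelihood test blocked by mouse, Benjamini-Hochberg adjusted p under 0.05). The median log2 fold change of the members was -3.50, against -0.15 over all miRNAs. miR-200b-3p fell by 3.67 on the log2 scale (SE 0.211, edgeR adjusted p = 3.34e-28), miR-200a-3p by 3.03 (SE 0.223) and miR-200c-3p by 2.97 (SE 0.254). Each of these 3 was lower in arterioles in 28 of 28 mice by CPM.

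The remaining 4 called members had groups of arteriole libraries with no count at all, and a fitted fold change then depends on the model and is no bound. miR-429-3p had a log2 fold change of -4.35 in the full model (SE 0.203, edgeR adjusted p = 2.06e-33) and -3.36 in a model of compartment and mouse alone. miR-141-3p had -3.32 and -2.74 in these models. The 5p strands gave -5.05 and -3.85 for miR-200b-5p and -4.13 and -3.36 for miR-200a-5p. miR-200b-5p had no count in 16 of 28 arteriole libraries and miR-200a-5p in 19 of 28. The call of miR-200b-5p was lost without healthy mouse 2 (-4.67, edgeR adjusted p = 1). Beside such a value, a p of 1 can mean that the fit could not test the member. By CPM miR-200b-5p was lower in arterioles in 28 of 28 mice. miR-141-5p had 0 counts in all arteriole libraries and the full model could not test it among the microdissected compartments. Compartment and mouse alone called it lower in arterioles (-2.50, edgeR adjusted p = 0.0161) and higher in peritubular capillaries (2.06, edgeR adjusted p = 0.0293) and post-capillary venules (1.48, edgeR adjusted p = 0.0138), from libraries mostly at 0.

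Compared in pairs, 7 of 8 members were lower in arterioles than in glomeruli (30.3% of all miRNAs lower), than in peritubular capillaries (18%) and than in post-capillary venules (24%). For miR-200b-3p the log2 fold changes of arterioles were -2.61 against glomeruli (SE 0.222, lower in 27 of 28 mice), -4.40 against peritubular capillaries (SE 0.233, 28 of 28 mice) and -4.00 against post-capillary venules (SE 0.23). For miR-200c-3p they were -1.71 against glomeruli (SE 0.274, lower in 24 of 28 mice), -3.38 against peritubular capillaries (SE 0.285, 27 of 28 mice) and -3.81 against post-capillary venules (SE 0.283). Arterioles were also the compartment richest in the smooth muscle miRNAs miR-143-3p and miR-145a-5p, which together took a median of 52.4% of their miRNA counts, against 10.1% in glomeruli, 4.05% in peritubular capillaries and 6.34% in post-capillary venules. The part of this difference in the family's levels was not tested.

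Glomeruli lay between arterioles and the other vessels. Against the mean of the other 3 compartments, 1 of 8 members was lower in glomeruli, next to 11.7% of all miRNAs. Higher members numbered 0, next to 41.8% of all miRNAs, and the median log2 fold change over all miRNAs was 0.48. The lower member was miR-200c-3p, which fell by 0.69 (SE 0.215, edgeR adjusted p = 0.00486). Its call was lost without CLP 4 h mouse 4 (-0.42, edgeR adjusted p = 0.075) and in the healthy and 4 h mice alone (-0.31), and was made in the 24 h and 72 h mice alone (-0.99). miR-200b-3p and miR-200a-3p had -0.19 and -0.18 (edgeR adjusted p = 0.381 and 0.492). These values went with the set of columns: in the 24 h and 72 h mice alone miR-200b-3p (-0.51, edgeR adjusted p = 0.0177), miR-200a-3p (-0.52, 0.0104), miR-429-3p (-0.60, 0.000733) and miR-141-3p (-1.15, 0.0162) also passed, whereas in the healthy and 4 h mice alone miR-200b-3p, miR-200a-3p and miR-429-3p had 0.19, 0.26 and 0.26 and missed the threshold (edgeR adjusted p = 0.661, 0.616 and 0.347). The difference between the sets was not tested. This contrast averages log levels and so weighs the low arterioles fully: by CPM, glomeruli lay below the plain mean of the other 3 compartments in 28 of 28 mice for miR-200b-3p, miR-429-3p and miR-200c-3p, in 26 for miR-200a-3p and in 25 for miR-141-3p. The full model could not test miR-429-3p and miR-141-3p in this contrast, and compartment and mouse alone gave -0.45 and -0.99.

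In pairs, 6 of 8 members were lower in glomeruli than in peritubular capillaries (15.4% of all miRNAs lower) and 6 of 8 than in post-capillary venules (19.8%). The median over all miRNAs ran the other way against peritubular capillaries, at 1.097, and was 0.13 against post-capillary venules. Against peritubular capillaries, miR-429-3p fell by 1.91 (SE 0.161, edgeR adjusted p = 3.99e-18, lower in 28 of 28 mice), miR-200b-3p by 1.79 (SE 0.199) and miR-200c-3p by 1.67 (SE 0.258). Against post-capillary venules, miR-141-3p fell by 2.49 (SE 0.431, edgeR adjusted p = 9.9e-07, lower in 27 of 28 mice), miR-200c-3p by 2.10 (SE 0.253), miR-429-3p by 1.66 (SE 0.16) and miR-200b-3p by 1.39 (SE 0.196). The call of miR-200b-5p against peritubular capillaries (-1.02, edgeR adjusted p = 0.031) was lost without any of healthy mouse 2 (-0.04), CLP 4 h mouse 1 (-0.80), CLP 4 h mouse 4 (-0.86), sham 24 h mouse 3 (-0.92) and CLP 72 h mouse 2 (-0.84). In the healthy and 4 h mice alone, miR-141-3p (-1.75), miR-200a-3p (-0.88) and miR-200b-5p (-0.88) missed the threshold against peritubular capillaries, as did miR-200a-3p (-0.93), miR-200b-3p (-0.84) and miR-200b-5p (-1.17) against post-capillary venules.

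Peritubular capillaries, the vessels wrapped around the tubules, were rich in the family. Of 8 members tested, 7 were higher there than the mean of the other 3 compartments, next to 15.7% of all miRNAs, and the median over all miRNAs was -0.85. The log2 fold change was 2.41 for miR-429-3p (SE 0.134, edgeR adjusted p = 1.23e-28, 28 of 28 mice), 2.20 for miR-200b-3p (SE 0.152, 28 of 28 mice), 1.54 for miR-200c-3p (SE 0.201, 23 of 28 mice) and 1.51 for miR-200a-3p (SE 0.177, 27 of 28 mice). miR-141-3p was higher by 1.61 (SE 0.375, edgeR adjusted p = 0.000153), with the CPM higher in 18 of 28 mice. The 5p strands miR-200b-5p (1.91, 19 of 28 mice) and miR-200a-5p (1.70, 16 of 28 mice) were called as well. The mean of the other 3 includes arteriole groups at 0 for miR-429-3p, miR-141-3p and the 5p strands, so these fitted values depend on the model. Compartment and mouse alone gave 2.07 for miR-429-3p, 1.43 for miR-141-3p, 1.64 for miR-200b-5p and 1.54 for miR-200a-5p. miR-200b-5p lost the call without healthy mouse 2 (0.92, edgeR adjusted p = 1), where the fit may again have been unable to test it. miR-200a-5p missed the threshold in the healthy and 4 h mice alone (1.71).

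Post-capillary venules were rich in the family too: 7 of 8 members were higher there than the mean of the other 3 compartments, next to 25.6% of all miRNAs, with a median over all miRNAs of 0.36. miR-141-3p and miR-200c-3p, the members of one cluster, were higher by 2.52 (SE 0.337, edgeR adjusted p = 8.6e-10, 23 of 28 mice) and 2.11 (SE 0.188, edgeR adjusted p = 4.5e-17, 28 of 28 mice). From the other cluster, miR-429-3p was higher by 2.08 (SE 0.135, 26 of 28 mice), miR-200a-3p by 1.70 (SE 0.168, 24 of 28 mice) and miR-200b-3p by 1.66 (SE 0.153, 24 of 28 mice). miR-200b-5p and miR-200a-5p were higher by 2.58 (23 of 28 mice) and 1.99 (17 of 28 mice). Here too the arteriole groups at 0 make the values of miR-429-3p, miR-141-3p and the 5p strands depend on the model. Compartment and mouse alone gave 1.74 for miR-429-3p, 2.30 for miR-141-3p, 2.14 for miR-200b-5p and 1.78 for miR-200a-5p.

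Between peritubular capillaries and post-capillary venules, 0 of 8 members passed the threshold in either direction, where 41.8% of all miRNAs did, and 1 member had an unadjusted p under 0.05 (edgeR quasi-likelihood test). The log2 fold changes of peritubular capillaries over venules were 0.40 for miR-200b-3p (SE 0.194, edgeR adjusted p = 0.0885, higher in 22 of 28 mice), 0.25 for miR-429-3p, -0.14 for miR-200a-3p, -0.43 for miR-200c-3p (SE 0.248, edgeR adjusted p = 0.175) and -0.68 for miR-141-3p. The median over all miRNAs was -0.79 in this pair. The 3p members of the first cluster thus lay above those of the second, none of them past the threshold.

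**Figure D2:**
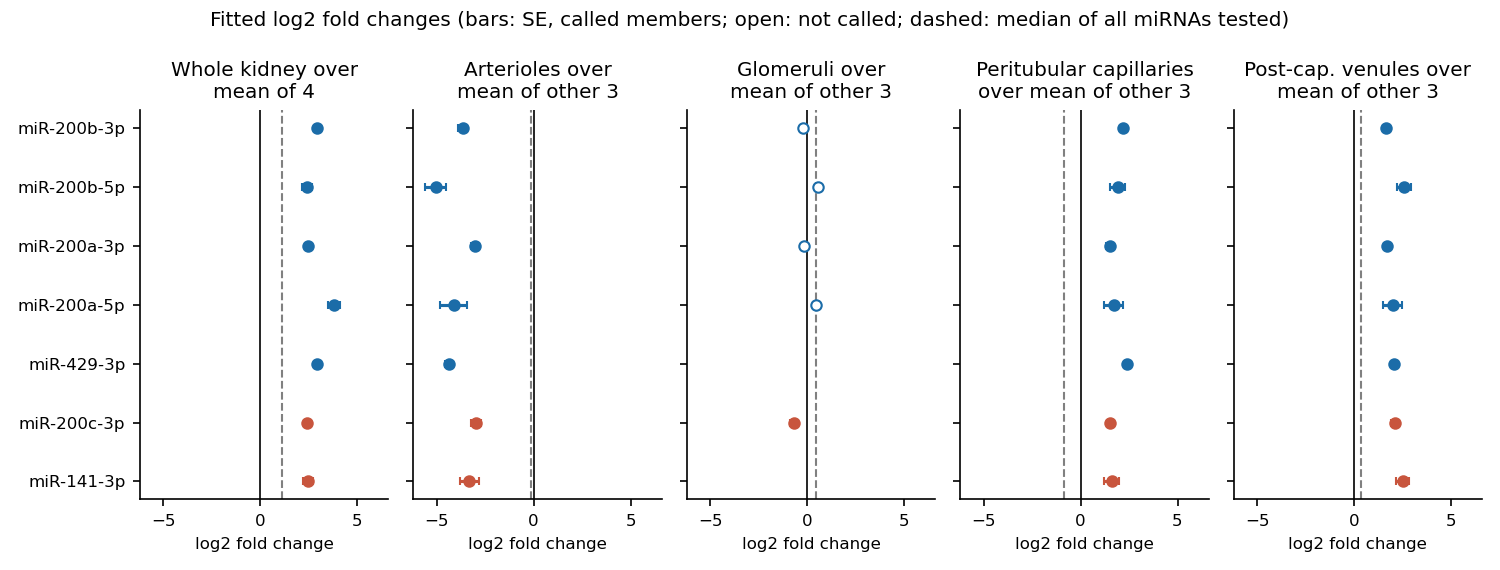
Fitted log2 fold change of 7 members in whole kidney over the mean of the 4 compartments and in each compartment over the mean of the other 3; miR-429-3p and miR-141-3p are left out for glomeruli. Filled points passed an adjusted p of 0.05 and carry SE bars, open points did not, and the dashed line is the median of all miRNAs; the members lie below that line in arterioles and above it in whole kidney, peritubular capillaries and post-capillary venules.

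The summed level of tubular marker miRNAs ranked the tissues as the family did, but miR-215-5p alone did not. The summed level of miR-192-5p, miR-194-5p and miR-215-5p, miRNAs abundant in renal tubules, ran from 6539 to 13092 CPM in whole kidney, from 4766 to 11046 CPM in peritubular capillaries, from 1536 to 7067 CPM in post-capillary venules, from 296 to 1511 CPM in glomeruli and from 61.3 to 1766 CPM in arterioles. Most of that sum was miR-192-5p, with a whole-kidney mean of 8632 CPM and a mean of 6439 CPM in the capillaries. miR-215-5p averaged 15.3 CPM in whole kidney, against 279.6 CPM for peritubular capillaries and 61.4 CPM for the venules, and was lower in whole kidney than in either (edgeR adjusted p = 5.73e-05 and 0.00554). None of the 3 was at 0 in all libraries of a compartment. By the same fit, 3 of 3 were higher in peritubular capillaries (15.7% of all miRNAs) and 2 in post-capillary venules (25.6%). In glomeruli 1 was lower (11.7%), and in arterioles 2 (16.7%). miR-194-5p and miR-215-5p in glomeruli and miR-215-5p in venules had SE of 5.7 or more, so their lack of a call says nothing on their level. In bulk samples such as these, fewer cells of a type and less RNA per cell cannot be told apart, and the part of tubular tissue in the family's levels was not tested.

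Other epithelial miRNAs outside the family gave the same ranking for some members and another for others. Of 11 tested, 0 were higher in arterioles, next to 21.1% of all miRNAs. There 7 were lower, next to 16.7%, among them miR-375-3p (-3.43), miR-182-5p (-3.27) and miR-192-5p (-3.04). In peritubular capillaries 8 were higher, next to 15.7% of all miRNAs, with miR-182-5p at 2.72 and miR-192-5p at 2.47. In post-capillary venules 7 were higher, next to 25.6%, with miR-375-3p at 3.13 and miR-205-5p at 2.30. Glomeruli had 3 lower, next to 11.7% of all miRNAs: miR-205-5p (-2.41), miR-203-3p (-1.25) and miR-192-5p (-0.91). They had 1 higher, miR-204-5p (2.95), next to 41.8%. In glomeruli miR-182-5p, miR-183-5p, miR-96-5p, miR-194-5p and miR-215-5p had SE of 5.7 or more, so their lack of a call says nothing on their level. The same held for miR-96-5p in each of the other vessel types. Between peritubular capillaries and venules 4 of these were higher in the capillaries, miR-215-5p (1.91), miR-34a-5p (0.86), miR-192-5p (0.74) and miR-203-3p (0.65), and miR-375-3p was lower there (-2.12). Of all miRNAs, 7.31% were higher and 34.5% lower in the capillaries in this pair.

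The clusters did not keep the same proportions in all tissues. The cluster of miR-200b, miR-200a and miR-429 made up 85.9% ± 2.14 of the family's counts in whole kidney, 86.8% ± 4.06 in glomeruli, 86.3% ± 5.36 in peritubular capillaries, 81.4% ± 9.4 in arterioles and 80.2% ± 4.61 in post-capillary venules (mean and SD over libraries with at least 20 family counts). Within the seed AAUACUG, miR-200c-3p supplied a mean of 17.3% in whole kidney, 17.5% in glomeruli, 16.4% in peritubular capillaries, 25.1% in arterioles and 24.6% in venules. The near-identical pair miR-200b-3p and miR-200c-3p was therefore compared by their ratio within each library, which does not depend on scaling between libraries. The log2 ratio of miR-200b-3p to miR-200c-3p averaged 0.98 ± 0.277 in whole kidney (SD, 28 libraries), 0.91 ± 0.653 in glomeruli (28), 1.08 ± 1.12 in peritubular capillaries (26), 0.09 ± 0.979 in arterioles (18) and 0.03 ± 0.766 in venules (28), over libraries with at least 20 counts of the pair.

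Averaged over libraries, the ratio was thus near 0 in post-capillary venules and arterioles, and the other tissues held more miR-200b-3p than miR-200c-3p. Summed counts of miR-200b-3p and miR-200c-3p were 17708 and 13619 in venules and 686 and 653 in arterioles. Of 10 tissue pairs, 6 passed for this ratio (two-sided sign-flip permutation test over mice, Benjamini-Hochberg adjusted over the 20 tests of both ratios). Whole kidney exceeded venules by 0.95 (SD 0.690, 28 of 28 mice, permutation adjusted p = 0.0001, the smallest these permutations gave), glomeruli exceeded venules by 0.88 (25 of 28 mice, permutation adjusted p = 0.0001) and peritubular capillaries exceeded venules by 1.01 (21 of 26 mice, permutation adjusted p = 0.00227). Whole kidney exceeded arterioles by 0.99 (16 of 18 mice, permutation adjusted p = 0.00575), and arterioles lay below glomeruli by a log2 difference of -0.83 (12 of 18 mice, permutation adjusted p = 0.0205) and below peritubular capillaries by -0.84 (15 of 18 mice, permutation adjusted p = 0.0141).

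The difference from venules was present in both sets of columns, with unequal sizes. Whole kidney exceeded venules by 1.23 in the healthy and 4 h mice (12 of 12, permutation adjusted p = 0.0054) and by 0.74 in the 24 h and 72 h mice (16 of 16, permutation adjusted p = 0.001). Glomeruli exceeded venules by 1.25 (10 of 12 mice, permutation adjusted p = 0.0159) and by 0.60 (15 of 16 mice, permutation adjusted p = 0.0012) in these sets. Peritubular capillaries exceeded venules by 1.74 in the healthy and 4 h mice (SD 2.06, 9 of 10, permutation adjusted p = 0.0159), and the 0.55 in the 24 h and 72 h mice missed the threshold (12 of 16, permutation adjusted p = 0.0702). Healthy mouse 4 had a capillary ratio of 5.43, against -1.16 in venules. Its capillary library had 0 counts of miR-200c-3p, so the added 0.5 set that ratio. Over both sets together, the difference of capillaries from venules ran from 0.78 to 1.11 with a mouse left out. The mean ratio in venules was 0.41 in the 24 h and 72 h mice and -0.47 in the healthy and 4 h mice. Arterioles had too few counts for a test in the healthy and 4 h mice. In the 24 h and 72 h mice whole kidney exceeded arterioles by 0.98 (12 of 14, permutation adjusted p = 0.0266), and the arteriole differences of -0.79 from glomeruli and -0.83 from peritubular capillaries missed the threshold (permutation adjusted p = 0.0702 and 0.0656).

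The pair with the other seed, miR-200a-3p and miR-141-3p, had log2 ratios averaging 3.91 in whole kidney, 4.43 in glomeruli, 4.46 in peritubular capillaries, 3.53 in arterioles and 3.36 in venules. miR-141-3p had 0 counts in 7 of 28 capillary, 11 of 28 arteriole and 2 of 28 glomerular libraries. At such counts the added 0.5 and the depth set the ratio. Summed counts were 3622 and 240 in capillaries, 872805 and 47831 in whole kidney and 26468 and 1846 in venules. By these sums the ratio in capillaries lay below that in whole kidney, unlike the means. Of its 10 tissue pairs, 3 passed. Arterioles lay below glomeruli by a log2 difference of -1.18 (higher in 1 of 15 mice, permutation adjusted p = 0.0126), glomeruli exceeded venules by 1.14 (18 of 27 mice, permutation adjusted p = 0.0123) and whole kidney exceeded venules by 0.56 (21 of 27 mice, permutation adjusted p = 0.0141). The difference of whole kidney from venules missed the threshold with at least 50 counts of the pair (0.38) and in the healthy and 4 h mice alone (0.50), and that of glomeruli missed it in the healthy and 4 h mice (1.34). In both seed pairs the ratio was thus lower in venules than in glomeruli and in whole kidney.

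**Figure D3:**
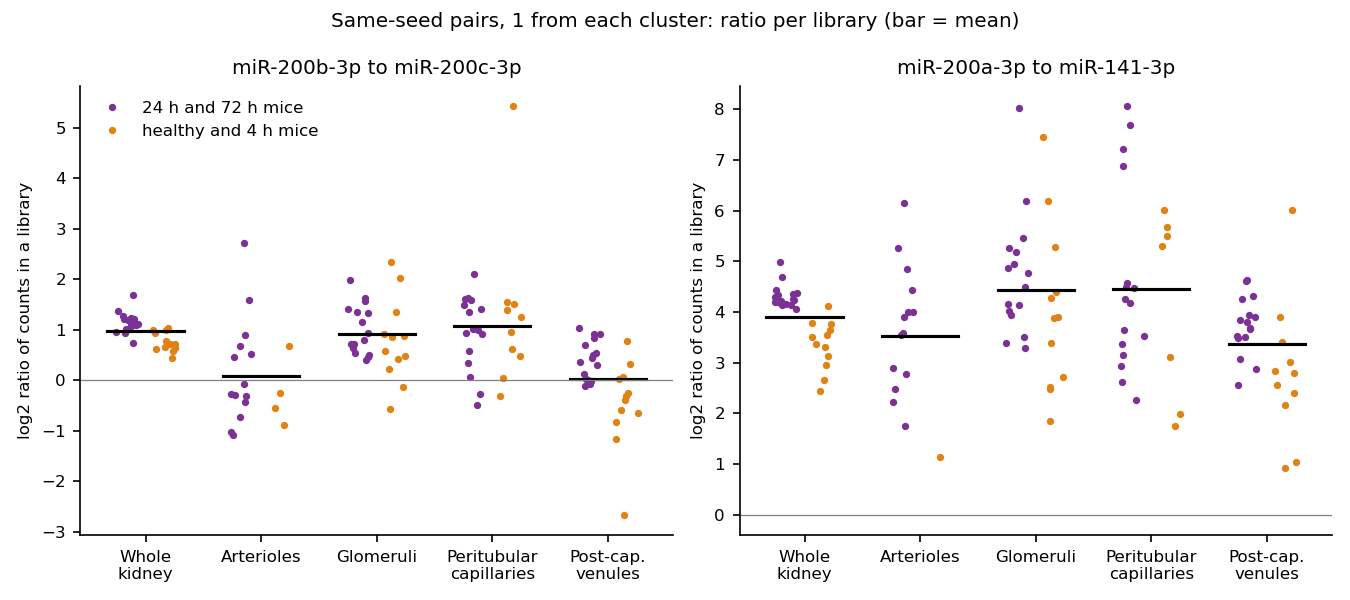
Log2 ratio of miR-200b-3p to miR-200c-3p and of miR-200a-3p to miR-141-3p in each library with at least 20 counts of the pair, by tissue. Points are libraries, purple for the 24 h and 72 h mice and orange for the healthy and 4 h mice, and bars are means; the venule and arteriole means of the first ratio lie near 0 and the others near 1.

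The 3p strand was the main product of every precursor. The mean share of 3p in both strands ran from 84.7% to 93.5% over the 5 tissues for miR-200b and from 92.4% to 95.6% for miR-200a, and was near 100% for miR-429 and miR-200c. For miR-141 it ran from 88.3% to 100%. Seed AAUACUG made up a mean of 75.2% of the 3p counts in whole kidney, 76.5% in peritubular capillaries, 72.6% in the venules, 70.2% in glomeruli and 68.1% in arterioles.

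Whole kidney held more of the family than the microdissected vessels did. All 8 members tested were higher in whole kidney than the mean of the 4 compartments, where 60.9% of all 445 miRNAs were higher and the median log2 fold change over all was 1.14. The log2 fold change was 2.95 for miR-200b-3p (SE 0.113, edgeR adjusted p = 7.48e-46), 2.93 for miR-429-3p (SE 0.104), 2.47 for miR-200a-3p (SE 0.128) and 2.41 for miR-200c-3p (SE 0.144), each higher in 28 of 28 mice. miR-141-3p was higher by 2.48 (SE 0.248, 27 of 28 mice), and the 5p strands miR-200a-5p and miR-200b-5p by 3.804 and 2.43. The fitted values of miR-429-3p, miR-141-3p, miR-200a-5p and miR-200b-5p include arteriole groups at 0 and so depend on the model. That of miR-141-5p rests on compartments at 0 and is not given. DESeq2 did not call it.

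Against the compartments richest in the family the difference was smaller. Over peritubular capillaries 6 of 8 members were higher in whole kidney, next to 53.3% of all miRNAs and a median over all of 1.40. miR-200a-3p was higher by 0.96, miR-200b-3p by 0.94, miR-200c-3p by 0.89 and miR-429-3p by 0.68 (edgeR adjusted p = 1.06e-05, 27 of 28 mice), all below that median. Over post-capillary venules 6 of 8 were higher, next to 41.6% and a median over all of 0.66. miR-200b-3p was higher by 1.57, miR-429-3p by 1.16, miR-200a-3p by 1.06 and miR-200c-3p by 0.70 (edgeR adjusted p = 0.0021, 25 of 28 mice), and miR-141-3p had 0.46 (edgeR adjusted p = 0.208). Tissue type and the use of microdissection cannot be told apart in these comparisons.

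Few values of the family differed between CLP and sham past the test. CLP was compared with sham in 5 tissues at 3 times, which gave 105 tests of members in 15 comparisons. With edgeR's quasi-likelihood test, 1 of the 105 passed and 8 had an unadjusted p under 0.05. In arterioles the calls took 1 of 5 members and 0.36% of all miRNAs at 4 h, and 0 members and 0% at 24 h and 72 h. In glomeruli 0 of 7 members passed, next to 0.592% of all miRNAs at 4 h, 0% at 24 h and 0.592% at 72 h. In peritubular capillaries 0 of 7 passed, next to 0%, 0.498% and 0.995%, and in post-capillary venules 0 of 7, next to 0%, 0% and 1.05%. In whole kidney 0 of 9 passed, next to 0.185%, 0.554% and 1.85%. Averaged over the 3 times, 0 members passed in any tissue, where 0.36% of all miRNAs did in arterioles, 0.592% in glomeruli, 0.498% in peritubular capillaries, 0.351% in the venules and 2.58% in whole kidney.

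The called value was miR-429-3p in arterioles at 4 h. Its counts were 16, 17, 0 and 22 in the 4 CLP mice and 0 in each of the 4 sham mice. Summed over the group, CLP arterioles had 172 CPM, and with sham set to the 3 counts that 0 allows over its group (21.6 CPM) the level was at least 7.99-fold higher in CLP (edgeR adjusted p = 0.021, counts above 0 in 3 of 4 CLP mice). The groups overlapped at 0, since 1 CLP mouse had none. The call was lost without any of the 4 sham mice (edgeR adjusted p = 0.0847, 0.0727, 0.0671 and 0.137 for mice 1 to 4), without CLP mouse 2 (0.0515) and without CLP mouse 4 (0.0641). It was also lost with library sizes alone as scaling (0.0614).

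The low side was the sham group. Sham arterioles at 4 h had 0 counts of miR-429-3p in 4 of 4 mice, against 15, 5, 9 and 7 counts in the 4 healthy mice. Healthy arterioles were at least 9.05-fold above the 3-count limit of sham, and miR-429-3p was the 1 of 5 members lower in sham (edgeR adjusted p = 0.00494), next to 0.719% of all miRNAs lower and 1.44% called in either direction. This call was kept in each of the 28 fits that left out 1 mouse. With the 8 libraries of the compared groups alone, miR-429-3p missed the filter on low counts in both of these comparisons and was not tested. In the other 4 tissues 0 members passed between sham at 4 h and healthy mice, where 0% of all miRNAs did, and the lowest unadjusted p were 0.00274 for miR-141-3p in whole kidney (log2 fold change 0.56) and 0.00806 for miR-429-3p in peritubular capillaries (-0.79).

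Glomeruli at 24 h had the most members apart between the groups. miR-200a-3p was at 1004, 788, 1294 and 567 CPM in CLP glomeruli, against 1406, 1825, 1576 and 2255 CPM in sham glomeruli. miR-429-3p was at 1277, 450.5, 1422 and 645 CPM in CLP, against 1588, 2071, 1767 and 2292 CPM in sham. miR-200c-3p was at 353, 99.0, 448 and 323 CPM in CLP, against 733, 795, 573 and 1197 CPM in sham. For these 3 and for miR-200b-5p every CLP value lay below every sham value, 4 of 7 members, next to 7.69% of all miRNAs with groups apart in that direction. None passed the test: the log2 fold changes were -0.99 for miR-429-3p (SE 0.364, edgeR adjusted p = 0.209), -1.39 for miR-200c-3p (SE 0.596, edgeR adjusted p = 0.371) and -0.92 for miR-200a-3p (SE 0.421, edgeR adjusted p = 0.393), each lower in 4 of 4 CLP mice. Here 0 of 338 miRNAs were called and 36 had an unadjusted p under 0.05. miR-200b-3p was at 905, 309, 1134 and 445 CPM in CLP, against 1213, 1120, 831 and 1582 CPM in sham, and its groups overlapped.

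At the other times the groups in glomeruli overlapped for each member. The summed family at 24 h was at 3742, 1766, 4506 and 2170 CPM in CLP, against 5291, 6093, 4995 and 7675 CPM in sham. At 72 h it was at 6908, 2662, 6056 and 3339 CPM in CLP, against 1851, 5190, 6827 and 2061 CPM in sham. The spread within a group at 72 h was thus as wide as the separation at 24 h.

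In post-capillary venules at 4 h, miR-141-3p was at 207, 382, 421 and 176 CPM in CLP, against 78.1, 144.03, 158 and 142.7 CPM in sham. The groups did not overlap, for 1 of 7 members next to 1.4% of all miRNAs, and the difference did not pass the test. In peritubular capillaries at 4 h, miR-200a-3p was at 2804, 1577, 822 and 2291 CPM in CLP, against 1255, 1128, 803 and 0 CPM in sham (log2 fold change 1.32, unadjusted p = 0.00769, edgeR adjusted p = 0.423). Its groups overlapped. miR-429-3p there was at 5917, 3648, 6739 and 4394 CPM in CLP, against 2711, 2740, 4284 and 3920 CPM in sham (0.64, edgeR adjusted p = 0.501), and overlapped too. In whole kidney at 4 h, miR-141-3p was at 277, 265, 357 and 290 CPM in CLP, against 564, 349, 296 and 397 CPM in sham (-0.44, unadjusted p = 0.016, edgeR adjusted p = 0.867).

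Whole kidney was the deepest set of libraries. The summed family at 4 h was at 17221, 18718, 17823 and 17588 CPM in CLP, against 17840, 19292, 17821 and 25693 CPM in sham. At 24 h it was at 37515, 36375, 38412 and 32529 CPM in CLP, against 35376, 35247, 42542 and 36285 CPM in sham. At 72 h it was at 35681, 32013, 31264 and 35510 CPM in CLP, against 34956, 34802, 34533 and 28819 CPM in sham. The groups overlapped at each time, and healthy mice had 20600, 21541, 14564 and 19390 CPM.

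**Figure D4:**
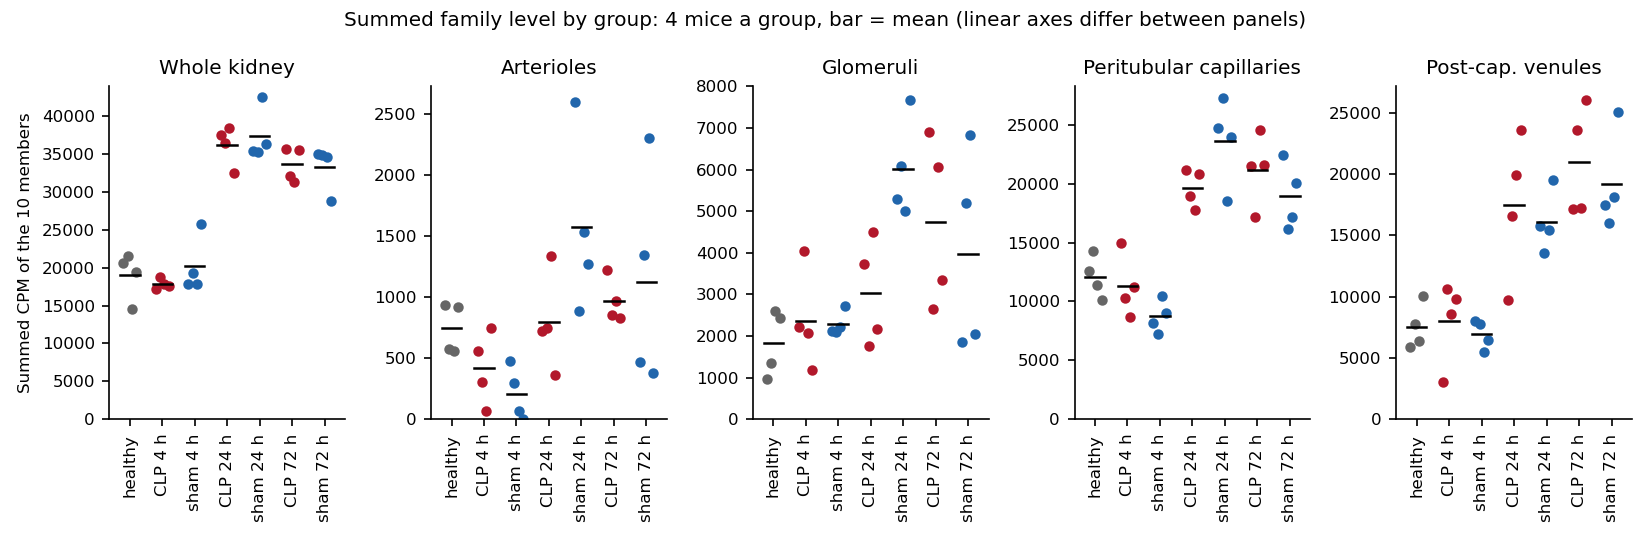
Summed CPM of the family in each mouse, by tissue and group, with CLP left of sham at each time and healthy mice at the low end. Points are mice and bars are means of 4; whole-kidney values are 14564 to 25693 CPM in healthy and 4 h mice and 28819 to 42542 CPM at 24 h and 72 h.

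Tests of whether the CLP effect differed between tissues or times gave no call among the members. Over the 3 times, 0 members passed in whole kidney, arterioles, venules and peritubular capillaries, where 0% of all miRNAs did, and 0 in glomeruli, where 0.592% did. The lowest was miR-429-3p in arterioles (edgeR adjusted p = 0.113), which DESeq2 (0.0282) and the fit without a filter on low counts (0.0443) called. Over the 4 microdissected compartments 0 of 8 passed, next to 0% of all miRNAs (lowest unadjusted p = 0.000834, edgeR adjusted p = 0.319, 1 member under 0.05 unadjusted). Between sham at 72 h and at 24 h 0 members passed in any tissue, next to 0% of all miRNAs in the vessels and 1.11% in whole kidney, where miR-200c-3p had -0.51 and miR-200b-5p -0.46 (edgeR adjusted p = 0.134 each). The log2 ratios of the seed pairs passed between CLP and sham in 0 of 10 tests, with adjusted p of 0.751 to 0.894 (exact two-sided permutation test within times).

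A larger step lay between the sets of columns. In whole kidney, miR-200a-3p averaged 9305 CPM ± 1664 in the 16 mice at 24 h and 72 h, against 3311 CPM ± 837 in the 12 healthy and 4 h mice, and the ranges of 7921 to 14778 and 2104 to 5456 CPM did not overlap. miR-429-3p averaged 11060 CPM at 24 h and 72 h, against 7678 CPM in the healthy and 4 h mice, also without overlap. miR-200b-3p averaged 9130 against 4337 CPM, miR-200c-3p 4153 against 2556 CPM and miR-141-3p 462 against 325 CPM in these sets, each with overlap. Of 350 miRNAs with a mean over 10 CPM, 4.57% were higher without overlap at 24 h and 72 h and 5.43% lower, and 2 of the 8 members with such a mean, miR-200a-3p and miR-429-3p, were among the higher ones. The change was unequal within a cluster: the log2 ratio of miR-200a-3p to miR-200b-3p in whole kidney averaged 0.02 at 24 h and 72 h (-0.16 to 0.55), against -0.40 in the healthy and 4 h mice (-0.70 to -0.18).

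The summed family was higher at 24 h and 72 h in all 5 tissues, with a log2 difference of the means of 1.298 in the venules, 1.28 in arterioles, 1.04 in glomeruli, 0.96 in the capillaries and 0.89 in whole kidney. For miR-200a-3p it was 1.82 in arterioles and 1.59 in glomeruli, with overlap. miR-200b-5p in peritubular capillaries lay the other way, at 316 CPM at 24 h and 72 h, against 552 CPM in the healthy and 4 h mice. miR-200a-3p averaged 5394 CPM in peritubular capillaries at 24 h and 72 h, against 1535 CPM in the healthy and 4 h mice, and 5409 against 1251 CPM in post-capillary venules, both without overlap. miR-200b-3p in venules averaged 3619 CPM at 24 h and 72 h, against 1148 CPM in the healthy and 4 h mice, without overlap. miR-429-3p moved less there, so that the log2 ratio of miR-429-3p to miR-200a-3p in venules averaged 0.04 (-0.29 to 0.42), against 1.39 in the healthy and 4 h mice (0.64 to 2.93), without overlap. The share of all miRNAs without overlap between the sets was counted in whole kidney alone. How common such a lack of overlap is in peritubular capillaries and venules is therefore not known here. The sets also differed in depth, with median miRNA counts in venules of 215286 at 24 h and 72 h and 45822 in the healthy and 4 h mice. Set and time after the operation cannot be told apart, and no test of this step was made.

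**Figure D5:**
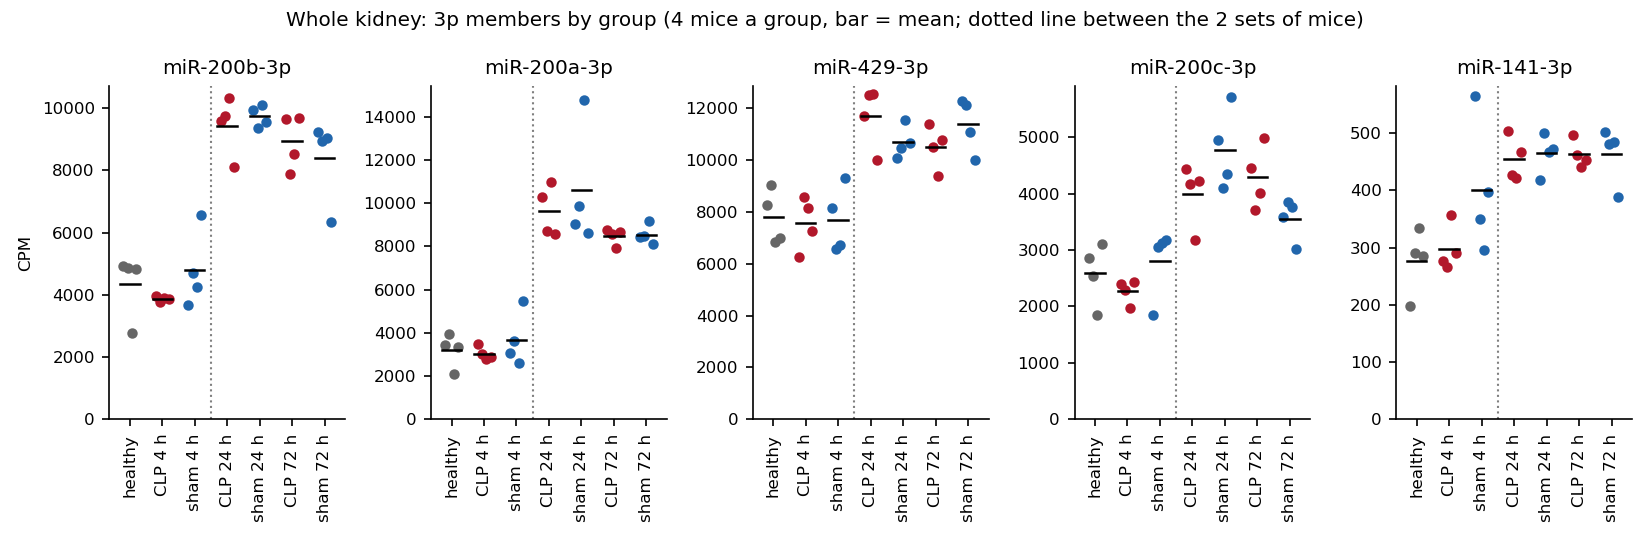
Level of the 5 guide-side members in whole kidney by group, in CPM on the vertical axis, with CLP left of sham at each time. Points are mice, bars are means of 4 and the dotted line separates the sets of columns; the values of miR-200a-3p at 24 h and 72 h lie above all of those at 0 h and 4 h.

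Among the other miRNAs that passed the filter, those whose mean levels over 28 combinations of microdissected compartment and group were most like a member were named by Pearson's r, as a description. For miR-200b-3p they were miR-192-5p (0.925), miR-190a-5p (0.890), miR-802-5p (0.872), miR-187-3p (0.866) and miR-874-3p (0.836). For miR-200c-3p they were miR-190a-5p (0.917), miR-187-3p (0.898), miR-192-5p (0.882), miR-375-3p (0.858) and miR-874-3p (0.858). Within the family, r was 0.949 between miR-200b-3p and miR-429-3p, 0.912 between miR-200b-3p and miR-200c-3p and 0.896 between miR-200c-3p and miR-141-3p. These means share libraries and scaling and are not independent points.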

How the data were processed

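Small RNA libraries were made with the RealSeq kit, per the labels' protocols, from 5 tissue samples of each of 28 mice. The authors deposited raw read counts per mature miRNA, 1 column per library, with 1474 miRNAs and 10 further entries marked #, which name no miRNA and held 5.58% of counts in whole kidney and 78.1% to 97.9% in the microdissected compartments, as means. These entries entered neither library sizes nor tests. FastQC 0.11.9, MultiQC 1.10, cutadapt 3.3 and Bowtie 1.3.0 and the builds GRCm38.p6 and GRCm39 are named in the submitters' processing notes, without their roles; strand and mismatch settings are not known here. No 2 libraries held identical counts.

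Counts were tested with edgeR 4.0.16 (R 4.3.3; TMM scaling, filterByExpr with a minimum count of 10 and a minimum total of 15, robust glmQLFit, glmQLFTest), with Benjamini-Hochberg adjustment over all miRNAs tested and a threshold of 0.05. The SE of a log2 fold change was derived as its absolute value over the square root of the test's F value, and is not a fitted standard error. CLP, sham and healthy mice were compared within each tissue over its 28 libraries. Compartments were compared over 112 libraries, and whole kidney over 140, with compartment by group means and the mouse, taken from the number in the sample titles, as a block. After the filter 5 members were tested in arterioles, 7 in each of glomeruli, peritubular capillaries and post-capillary venules, 9 in whole kidney and 8 across tissues. Pair ratios were log2 of counts plus 0.5 in libraries with at least 20 counts of the pair, tested by 100000 sign flips over mice, or exactly between CLP and sham. Scripts were tested on simulated data. Alternatives were DESeq2 1.42.0, RLE factors, library sizes alone, no filter, omission of libraries under 20000 counts, each mouse left out, other blocks, each set of columns alone, and compartment and mouse alone in the model.

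The members were named beforehand by the request, and they, the other epithelial miRNAs and the marker lists were chosen with earlier results of these data known. All 10 members are named. The likeness ranking took the 5 miRNAs most like miR-200b-3p and the 5 most like miR-200c-3p. Intervals and limits from counts cover counting error only. The p-values between groups of mice rest on the spread between mice, which edgeR pooled over the 7 groups of a tissue. Those between tissues rest on the spread of differences within mice.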

Additional observations from a re-analysis of the deposited data

Results flagged for a closer look

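In 89 groups of 4 mice, the family's summed level and the log2 pair ratios were searched for a mouse whose gap to its nearest neighbour took more than 0.829 of the group's range, and 5 groups held one. Chance gives such a gap in about 1 of 20 groups, so 5 of 89 is close to that share. In whole kidney, sham 24 h mouse 3 had a summed family level of 42542 CPM, against 35247 to 36285 CPM in the other 3 mice. In whole kidney, sham 72 h mouse 4 had 28819 CPM, against 34533 to 34956 CPM in the other 3. The log2 ratio of miR-200b-3p to miR-200c-3p in whole kidney was 0.956 in CLP 72 h mouse 4 and 1.09 to 1.12 in the other 3. The log2 ratio of miR-200a-3p to miR-141-3p in glomeruli was 8.02 in CLP 24 h mouse 2, where miR-200a-3p had 390 counts and miR-141-3p 1, and 3.29 to 4.02 in the other 3. The same ratio in peritubular capillaries was 8.06 in CLP 24 h mouse 4, where miR-200a-3p had 133 counts and miR-141-3p 0, and 3.64 to 4.25 in the other 3.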

How the results depend on the processing

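For the members and ratios called with the main settings, 2658 of their values under the alternatives were counted as the same, 33 missed the threshold and none changed direction. A tested value was the same if it kept direction and threshold. Cluster sums had no test and were the same if within the SD of the main difference. Most of these values come from fits with a mouse left out, which share nearly all their mice. Calls whose member missed the filter under an alternative are outside these counts. Values not called with the main settings are outside these counts, and some changed sign or passed under an alternative, such as miR-200b-3p and miR-200a-3p in glomeruli against the other 3 compartments. The single call between CLP and sham became 0 with library sizes alone and with the 8 libraries of the compared groups alone, 1 with the replicate block, and 0 to 1 with a mouse left out. The same-numbered mice correlated between -0.28 and 0.28, so the numbers do not pair them. The call between sham at 4 h and healthy mice became 0 with the compared groups alone, where the member missed the filter. The CLP effect differing between times went to 1 member with DESeq2 and without a filter, and was 0 to 1 with a mouse left out. The CLP effect differing between compartments went to 1 without a filter, with no replicate block and in the healthy and 4 h mice alone, and was 0 to 1 with a mouse left out; the member was miR-429-3p each time. The 6 tissue pairs that passed for the ratio of miR-200b-3p to miR-200c-3p became 3 of 6 testable in the healthy and 4 h mice and 3 of 10 at 24 h and 72 h. The 3 for miR-200a-3p to miR-141-3p became 0 of 6 in the healthy and 4 h mice, and 3 to 4 with a mouse left out. With whole kidney added to the means, 6 of the 10 miRNAs most like the members remained. Calls against the other 3 compartments numbered 22, and 20 to 22 with a mouse left out; those between pairs of compartments 33, and 31 to 34. miR-141-3p in arterioles against glomeruli missed the threshold in the 24 h and 72 h mice alone (-0.996). With library sizes alone the median of all miRNAs in arterioles moved by -0.97 to -1.12, and miR-200b-3p went to -4.77. Depth limits the members at low counts most, miR-141-3p and the 5p strands, in arterioles and peritubular capillaries. The causes of these shifts were not tested, apart from the filter named.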
